A study of Mus musculus with 6 samples.

Results

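The Toll-like receptors Tlr1, Tlr2, Tlr3, Tlr4, Tlr6, Tlr7, Tlr8, Tlr9 and Tlr13 and the co-receptor Cd14 were examined in FITC-challenged mouse ear skin. The 10 genes were chosen as a gene family with its co-receptor, and each is read by 1 probe set that the platform annotation assigns to that gene alone, out of 19938 genes measured in the same way. Ear skin came from 3 CLEC4C-DTR mice (genotype CLEC4C-DTR/+) and 3 littermate control mice, aged 10 to 12 weeks, with 1 mouse and 1 array per sample. The transgene carries the diphtheria toxin receptor under CLEC4C, a gene specific to human plasmacytoid dendritic cells, and mice of both groups were injected with diphtheria toxin, 200 ng each time, on days -1, 1, 3 and 5. Both groups were also sensitised with 0.5% FITC (fluorescein isothiocyanate, a reactive dye used as a contact allergen) on shaved abdominal skin on days 0 and 2. They were then challenged with 20 µL of it on the right ear on day 6, and only challenged ears were analysed here. No CLEC4C-DTR mouse without toxin was analysed here, so effects of the genotype and of the toxin on the target cells cannot be told apart.

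Toll-like receptors are membrane proteins of innate immunity that recognise molecules of microbes and of damaged tissue. Tlr1, Tlr2, Tlr4 and Tlr6 act at the cell surface on lipids and lipoproteins, Tlr2 as a partner of Tlr1 or Tlr6 and Tlr4 together with Ly96 on lipopolysaccharide that Cd14 hands over. Tlr3, Tlr7, Tlr8, Tlr9 and Tlr13 act in endosomes on nucleic acids. In skin these receptors are found on macrophages, neutrophils and dendritic cells and partly on keratinocytes, and Tlr7 and Tlr9 are best known from plasmacytoid dendritic cells and B cells.

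The arrays had a median log2 value of 6.17 to 6.23 over all probe sets. Among 6 keratinocyte markers, none of which passed the test, Krt14 lay between 12.01 and 12.22 on all 6 arrays, and the groups overlapped. Others did not overlap, with differences of -0.46 for Krt10, -0.33 for Trp63 and 0.39 for Dsg3 (log2). Siglech, which marks plasmacytoid dendritic cells in mice, had log2 values of 5.42, 5.52 and 5.47 in CLEC4C-DTR skin and 5.68, 5.41 and 5.84 in control skin, which overlap (limma adjusted p = 0.378). Hbegf, the mouse counterpart of the toxin receptor carried by the transgene, rose 2.44-fold (limma adjusted p = 0.0474), and reading of the transgene by its probes was not tested.

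Of the 10 genes, 6 rose in CLEC4C-DTR skin and none fell. They were Cd14, the surface receptors Tlr6, Tlr1 and Tlr4, and the endosomal receptors Tlr13 and Tlr8, with rises of 2.14-fold to 8.53-fold. Over all 19938 genes 9.32% passed the same test in either direction and 5.01% passed as higher. All 6 also met the 2-fold threshold named in the study's design, as 1.67% of all genes did in that direction. At an unadjusted p of 0.05, 8 of the 10 genes passed, against 27.3% of all genes. The median difference of the 10 genes was 1.17 (log2), and that of all genes was -0.04. Every adjusted p-value of a gene is from limma, two-sided, with Benjamini-Hochberg adjustment over all genes, and a gene was called at 0.05. RNA of whole skin cannot tell more cells of a type from more RNA per cell. Precision is limited by the 3 arrays in each group.

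**Figure D1:**
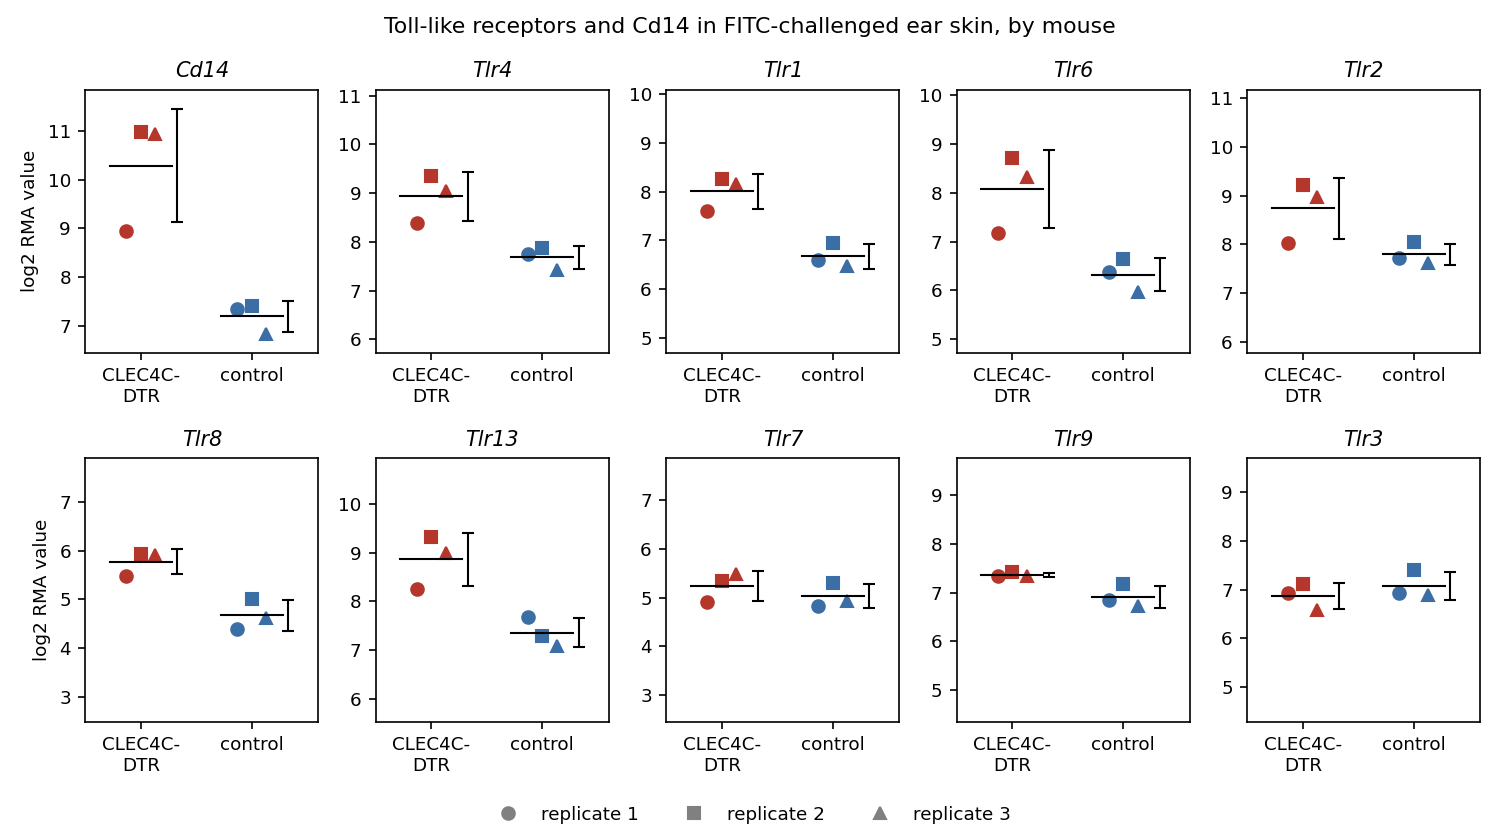
Log2 RMA value (vertical axis, the same span in every panel) of each gene in CLEC4C-DTR and control ears, 1 symbol per mouse, with the group mean as a line and the SD as a bar. Cd14 sits between 8.94 and 10.98 in CLEC4C-DTR skin, above all 3 control values, while the values of Tlr3, Tlr7 and Tlr2 overlap between the groups.

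Cd14, a lipid-anchored and secreted protein that binds lipopolysaccharide and passes it to Tlr4, had the largest difference of the 10 genes. Its log2 values were 8.94, 10.98 and 10.94 in the CLEC4C-DTR mice, against 7.34, 7.41 and 6.83 in the control mice. Every CLEC4C-DTR value lay above every control value, by 1.53 at the closest, and CLEC4C-DTR replicate 1 lay well below the other two of its group. The means were 10.29 ± 1.17 and 7.19 ± 0.31 (SD, n = 3 each), a difference of 3.09 (SE 0.50, limma adjusted p = 0.0169), or 8.53-fold. By size it was the 15th largest rise among the 19938 genes.

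Tlr4, the signalling receptor for lipopolysaccharide, rose with its co-receptor. Its log2 values were 8.39, 9.36 and 9.05 in CLEC4C-DTR skin and 7.76, 7.88 and 7.42 in control skin, without overlap. The difference was 1.25 (SE 0.24, limma adjusted p = 0.0230), or 2.37-fold. On the same array, Cd14 minus Tlr4 was 0.55, 1.63 and 1.88 in CLEC4C-DTR skin and -0.42, -0.47 and -0.58 in control skin. The change in that gap was 1.85 (SE 0.41, exact permutation p = 0.1, two-sided), and the groups did not overlap. With 3 mice against 3 an exact test cannot go below 0.1, so neither this pair nor the others below can pass. Over the 8 pairs of genes compared in this way, 7 had groups that did not overlap and an adjusted p of 0.114. Ly96, the small protein that holds lipopolysaccharide on Tlr4, rose 1.51-fold (log2 difference 0.59, SE 0.13, limma adjusted p = 0.0300).

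The partners of Tlr2 at the cell surface, Tlr6 and Tlr1, both rose. Tlr6, which pairs with Tlr2 on diacylated lipoproteins, had log2 values of 7.18, 8.71 and 8.32 in CLEC4C-DTR mice and 6.37, 6.64 and 5.96 in control mice. The groups were apart, and the difference of 1.75 (SE 0.36, limma adjusted p = 0.0279), or 3.36-fold, was the largest of the Toll-like receptors measured. Tlr1, the partner for triacylated lipoproteins, was at 7.60, 8.26 and 8.17 in CLEC4C-DTR skin and at 6.59, 6.96 and 6.48 in control skin. It rose by 1.33 (SE 0.19, limma adjusted p = 0.0142), or 2.51-fold, with the lowest p of the 10 genes. Tlr1 and Tlr6 are neighbours on chromosome 5 and close in sequence, and probes shared between them were not tested for.

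Tlr2 itself did not pass. Its log2 values were 8.02, 9.22 and 8.98 in CLEC4C-DTR mice and 7.72, 8.04 and 7.62 in control mice. CLEC4C-DTR replicate 1 lay just below the highest control mouse, replicate 2, and the other CLEC4C-DTR values lay above all controls. The difference was 0.94 (SE 0.28, 95% interval 0.29 to 1.59, limma adjusted p = 0.0751). Without CLEC4C-DTR replicate 1 it was 1.30 and passed (limma adjusted p = 0.00206), and without any other array it did not, at 0.0990 to 0.227.

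Set against Tlr6, Tlr1 and Tlr4 on the same array, Tlr2 had the smaller rise, though none of these 3 tests could pass. The 3 pairs share the Tlr2 values and are not independent. Tlr2 minus Tlr6 was 0.84, 0.50 and 0.65 in CLEC4C-DTR mice and 1.35, 1.41 and 1.66 in control mice, a change of -0.81 (SE 0.14, exact permutation p = 0.1). Tlr2 minus Tlr1 was 0.42, 0.96 and 0.81, against 1.12, 1.08 and 1.15, a change of -0.39 (SE 0.16, 95% interval -0.83 to 0.06, exact permutation p = 0.1). Tlr2 minus Tlr4 was -0.37, -0.14 and -0.08, against -0.04, 0.16 and 0.20, a change of -0.30 (SE 0.11, 95% interval -0.62 to 0.01, exact permutation p = 0.1). Only the interval of Tlr2 minus Tlr6, -1.18 to -0.43, excluded 0. These intervals rest on a t distribution with pooled variance and not on the permutation test. In all 3 pairs every CLEC4C-DTR value lay below every control value. A value of this kind compares how much each gene changed, since the levels of different probe sets are not comparable.

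**Figure D2:**
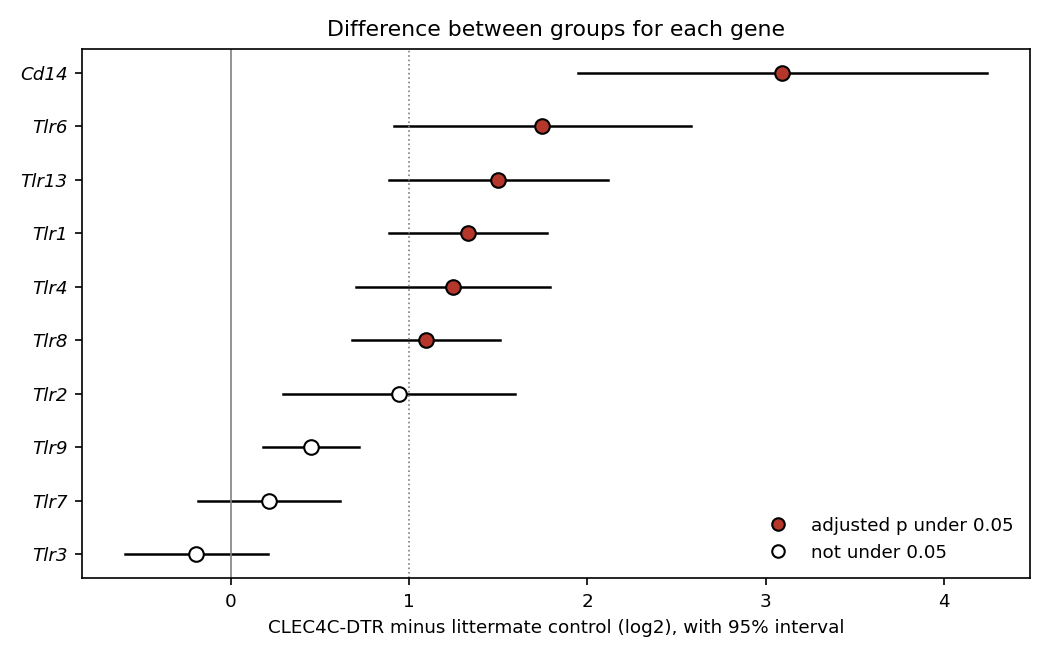
Difference between CLEC4C-DTR and littermate control skin for each gene (horizontal axis, log2, dotted line at 2-fold), with the 95% interval from limma. Filled points passed an adjusted p of 0.05, from Tlr8 at 1.10 to Cd14 at 3.09, and open points from Tlr3 at -0.19 to Tlr2 at 0.94 did not.

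The endosomal receptors divided into a pair that rose and 3 that did not pass. Tlr13, which recognises bacterial ribosomal RNA in mice, had log2 values of 8.25, 9.33 and 9.002 in CLEC4C-DTR skin and 7.69, 7.29 and 7.09 in control skin. It rose by 1.50 (SE 0.27, limma adjusted p = 0.0193), or 2.83-fold, with no overlap. Tlr8, whose ligands in humans are breakdown products of single-stranded RNA, was at 5.47, 5.93 and 5.90 in CLEC4C-DTR skin and at 4.39, 5.01 and 4.62 in control skin. It rose by 1.10 (SE 0.18, limma adjusted p = 0.0175), or 2.14-fold, again with no overlap.

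Tlr7, the receptor for single-stranded RNA whose gene neighbours Tlr8 on the X chromosome, gave another picture. Its log2 values were 4.91, 5.33 and 5.48 in CLEC4C-DTR mice and 4.84, 5.30 and 4.94 in control mice, and the groups overlapped. The difference was 0.21 (SE 0.17, limma adjusted p = 0.471), with a 95% interval of -0.18 to 0.61. Tlr7 and Tlr8 were both dim, at percentiles 23.9 and 25.5 of level over all genes. RMA compresses differences of dim genes, so these values do not show that Tlr7 stayed level. Tlr8 minus Tlr7 was 0.57, 0.60 and 0.43 in CLEC4C-DTR mice and -0.45, -0.29 and -0.32 in control mice. That change of 0.88 (SE 0.07, exact permutation p = 0.1) had the smallest error of the 8 pairs. Tlr13 minus Tlr7 likewise differed without overlap, by 1.28 (SE 0.33, exact permutation p = 0.1).

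Tlr9, the receptor for unmethylated CpG DNA, had nearly equal values in the CLEC4C-DTR mice, 7.34, 7.41 and 7.35, against 6.85, 7.17 and 6.73 in the control mice. The groups did not overlap, as for 7 of the 10 genes in this direction and for 14.0% of all genes. The difference of 0.45 (SE 0.12, 95% interval 0.18 to 0.72), or 1.37-fold, just missed the threshold (limma adjusted p = 0.0512). It passed without littermate control replicate 2, at 0.58 (limma adjusted p = 0.0242), and with any other array left out the adjusted p was 0.0676 to 0.173. Tlr7 minus Tlr9 overlapped between the groups, with a change of -0.24 (SE 0.18, exact permutation p = 0.2).

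Tlr3, the receptor for double-stranded RNA, was the only one of the 10 genes with a lower mean in CLEC4C-DTR skin. Its log2 values were 6.93, 7.12 and 6.59 in CLEC4C-DTR mice and 6.93, 7.40 and 6.88 in control mice, which overlap. The difference was -0.19 (SE 0.17, 95% interval -0.59 to 0.21, limma adjusted p = 0.524). Tlr4 minus Tlr3 differed by 1.44 between the groups (SE 0.32, exact permutation p = 0.1), without overlap. Of the remaining mouse Toll-like receptors, Tlr12 differed by -0.21 (SE 0.10, limma adjusted p = 0.233). Tlr5 and Tlr11 were not analysed here.

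**Figure D3:**
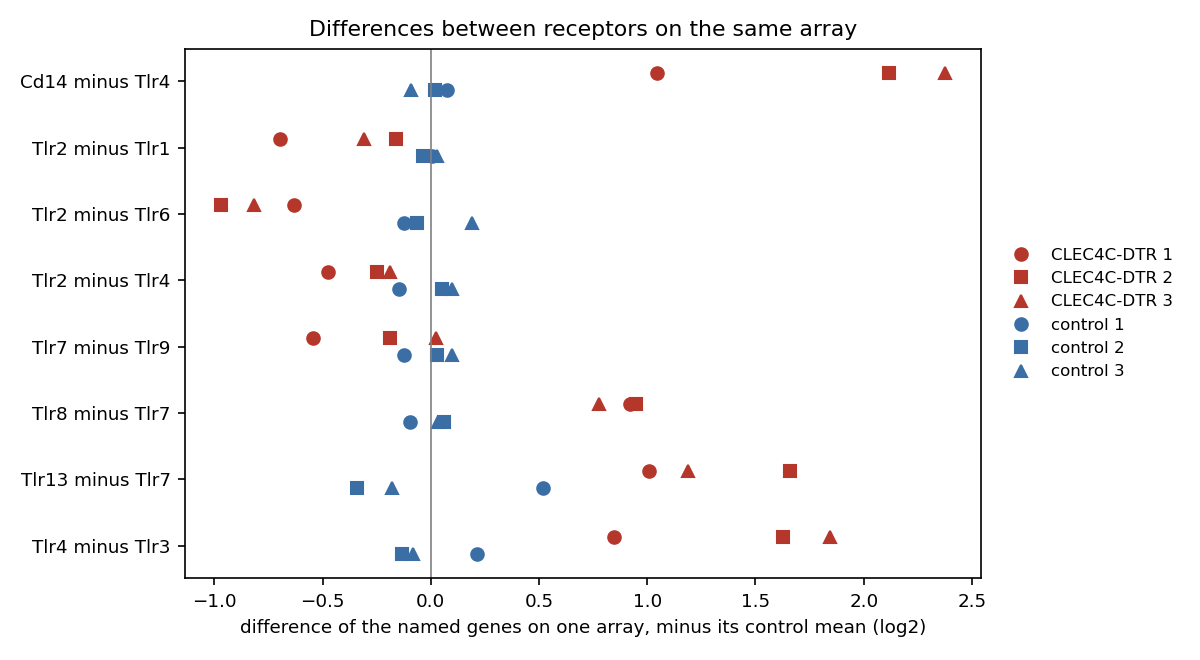
Difference between the log2 values of the 2 named genes on the same array (horizontal axis), shown minus its mean in the controls, with 1 symbol per mouse. The groups are apart in 7 of the 8 pairs and overlap for Tlr7 minus Tlr9, and Tlr8 minus Tlr7 has the tightest values.

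Promoter sequences from RefSeq (build GRCm38.p6) were examined for 7 of the 10 genes, with 9 start sites. The 250 bases before each start were searched on both strands. No entry was found for Tlr4 and Tlr7. Cd14, the gene with the largest rise of the 10, was left out of this search, so the matches below do not cover it. The motifs were the core of PU.1 (a myeloid transcription factor), GAGGAA, the AP-1 site TGANTCA, the core of the interferon-stimulated response element (10 letters) and the 10-letter kappa-B consensus. The PU.1 core was found in 4 of the 9 windows, those of Tlr8, Tlr13, Tlr9 and 1 of Tlr1, and in 23.3% of 32851 windows of all genes. The kappa-B consensus was found in Tlr2 and Tlr3, neither of which passed the test, and in 7.25% of all windows. The AP-1 site was found in Tlr9 and in 6.75% of all windows, and the interferon core in Tlr6 and in 2.98% of all windows, with 2 overlapping matches in Tlr6. A match describes the letters of the window and is not a bound site.

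Shown are the windows of the endosomal receptors that rose, of Tlr6 and of the genes with a kappa-B match, each from 250 bases before the start and with matches in capitals. In Tlr8 (chrX:167264330-167264579, minus strand) the capitals mark the PU.1 core on the opposite strand, and in Tlr13 (chrX:106143025-106143274, plus strand) the PU.1 core itself. In Tlr6 (chr5:64959167-64959416, minus strand) they mark the overlapping interferon cores on the opposite strand, and in Tlr2 (chr3:83841609-83841858, minus strand) and Tlr3 (chr8:45410381-45410630, minus strand) the kappa-B consensus, which in Tlr2 also matches 1 base further on.
Tlr8: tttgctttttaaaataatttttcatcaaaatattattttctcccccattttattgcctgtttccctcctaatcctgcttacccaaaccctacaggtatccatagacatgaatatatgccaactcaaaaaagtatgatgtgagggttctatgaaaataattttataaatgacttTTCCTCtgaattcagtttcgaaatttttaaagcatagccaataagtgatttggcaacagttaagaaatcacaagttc
Tlr13: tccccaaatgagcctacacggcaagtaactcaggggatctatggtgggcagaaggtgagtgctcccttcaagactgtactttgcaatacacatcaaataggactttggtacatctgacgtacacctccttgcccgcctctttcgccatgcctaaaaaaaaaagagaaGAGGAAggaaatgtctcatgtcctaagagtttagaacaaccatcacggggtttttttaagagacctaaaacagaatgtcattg
Tlr6: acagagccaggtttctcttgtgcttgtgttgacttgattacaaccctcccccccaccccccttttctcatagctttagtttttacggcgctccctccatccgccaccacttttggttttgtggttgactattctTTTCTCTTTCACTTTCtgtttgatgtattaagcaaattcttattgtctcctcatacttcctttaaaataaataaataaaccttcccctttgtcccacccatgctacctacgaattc
Tlr2: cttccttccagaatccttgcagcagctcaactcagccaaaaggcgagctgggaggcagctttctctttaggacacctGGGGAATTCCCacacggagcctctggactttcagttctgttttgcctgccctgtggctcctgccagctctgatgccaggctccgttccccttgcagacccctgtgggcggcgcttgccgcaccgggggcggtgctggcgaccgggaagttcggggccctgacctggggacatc
Tlr3: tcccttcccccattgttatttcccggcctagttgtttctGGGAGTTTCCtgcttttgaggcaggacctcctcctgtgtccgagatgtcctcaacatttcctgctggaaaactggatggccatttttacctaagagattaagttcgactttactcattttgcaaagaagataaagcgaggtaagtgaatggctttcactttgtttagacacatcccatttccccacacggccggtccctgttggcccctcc
The Tlr8 window held 31.2% G and C, that of Tlr13 44.4%, that of Tlr6 42.0%, that of Tlr3 48.0% and that of Tlr2 62.8%, against a median of 52.4% over all windows.

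The calls of the 6 genes depended on which array was left out. Without CLEC4C-DTR replicate 1 all 6 passed (limma adjusted p = 0.000114 to 0.00477), as did 13.1% of all genes, and the difference of Cd14 was then 3.77. Without littermate control replicate 2 all 6 passed as well (limma adjusted p = 0.0157 to 0.0468), with 6.11% of all genes called. Without CLEC4C-DTR replicate 2 only Tlr1 and Cd14 did, the adjusted p of the 6 was 0.0400 to 0.0695, and 2.34% of all genes were called. None passed with limma without CLEC4C-DTR replicate 3 (0.0580 to 0.0943), littermate control replicate 1 (0.0547 to 0.0837) or littermate control replicate 3 (0.0722 to 0.115), where 8 of the 10 genes still had an unadjusted p under 0.05. In those 3 fits 0.542%, 0.838% and 0.336% of all genes were called. Of the 19938 genes, 4447, 4446 and 3788 had an unadjusted p under 0.05 there. The difference of Tlr4 stayed between 1.03 and 1.52 over the 6 fits, that of Tlr8 between 0.95 and 1.27 and that of Tlr13 between 1.27 and 1.80.

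Within each group the receptors were ordered alike. CLEC4C-DTR replicate 1 had the lowest value of its group for 9 of the 10 genes, all but Tlr3, and replicate 2 the highest for 9, all but Tlr7. Among the controls, replicate 2 was highest for 9 genes, all but Tlr13, and replicate 3 lowest for 8. Mean levels of the 4 surface receptors, set against the control mean, in the 3 CLEC4C-DTR mice, taken in replicate order, were 0.68, 1.77 and 1.51 (log2). For the 5 endosomal receptors they were 0.37, 0.82 and 0.66.

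Most markers in the neutrophil list and in the monocyte and macrophage list also had a higher mean in CLEC4C-DTR skin. The marker counts here and below stand beside 5.01% of all genes that passed as higher and 27.3% with an unadjusted p under 0.05. Of 10 neutrophil markers 6 passed, all as higher. The mean of the 10, relative to its control mean, was 0.90, 2.23 and 2.00 in the CLEC4C-DTR mice, taken in replicate order, and -0.26 to 0.14 in the control mice. Csf3r, the receptor for granulocyte colony-stimulating factor, was at 8.51, 10.07 and 9.92 in CLEC4C-DTR skin and at 7.55, 7.25 and 6.60 in control skin. Of 12 monocyte and macrophage markers 8 passed, again all as higher, with list means of 0.75, 0.77 and 1.08 in CLEC4C-DTR mice and -0.27 to 0.21 in control mice. The lysosomal protein Cd68 was at 9.96, 10.08 and 10.25 in CLEC4C-DTR skin, against 9.17, 9.25 and 9.11 in control skin. The lysozyme gene Lyz2 went the other way, at 11.27, 11.30 and 11.26 in CLEC4C-DTR skin and at 11.38, 11.57 and 11.51 in control skin, and did not pass (limma adjusted p = 0.139). Adgre1 and Ccr2 overlapped between the groups and did not pass. CLEC4C-DTR replicate 1 was lowest of its group in the mean of both lists, but only narrowly for the monocyte and macrophage markers (0.75 against 0.77). The mean of that list was highest in replicate 3, whereas replicate 2 was highest for 9 of the 10 receptor genes. Replicate 1 was also lowest in the means of the T cell and conventional dendritic cell markers and of the receptors. The part of these cells in the receptor differences was not tested.

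Other cell types known to carry these receptors differed less. Of 7 plasmacytoid dendritic cell markers limma called 0 (2 had an unadjusted p under 0.05), and list means were -0.28 to -0.14 in CLEC4C-DTR mice and -0.06 to 0.05 in control mice. Among them 6 had a lower mean, most so Tcf4 (-0.41) and Cox6a2 (-0.30), the 2 brightest. These 2 were at percentiles 91.1 and 95.2 of level over all genes, and the other markers at 22.2 to 44.7. Which cells of whole skin gave the signal of Tcf4 and Cox6a2 was not tested. Siglech (-0.17) overlapped between the groups, and Spib was at 0.05. Whether plasmacytoid dendritic cells were fewer was not tested. For 4 B cell markers limma also called 0 (1 had an unadjusted p under 0.05), and list means were 0.01 to 0.16 in CLEC4C-DTR mice and -0.03 to 0.03 in control mice. Keratinocyte markers, 6 in number, gave 0 calls with limma, 3 at an unadjusted p under 0.05, and means of -0.22 to 0.20 in CLEC4C-DTR mice and -0.02 to 0.04 in control mice. Of 6 conventional dendritic cell markers 2 rose, with list means of 0.29 to 0.46 in CLEC4C-DTR mice and -0.09 to 0.11 in control mice. Of 6 T cell markers 1 rose, Cd2, an adhesion receptor, and 5 had an unadjusted p under 0.05. All 6 had a higher mean in CLEC4C-DTR skin, 5 of them without overlap, and the list means were 0.42 to 0.74 in CLEC4C-DTR mice and -0.11 to 0.14 in control mice. The part of T cells in the receptor differences was not tested either. Of 5 fibroblast markers 1 rose and 3 had an unadjusted p under 0.05, with list means of -0.19 to -0.01 in CLEC4C-DTR mice and -0.14 to 0.07 in control mice. Of 5 endothelial cell markers 1 rose and 2 had an unadjusted p under 0.05, with list means of 0.02 to 0.14 in CLEC4C-DTR mice and -0.06 to 0.07 in control mice. Of 3 Langerhans cell, 5 mast cell and 4 eosinophil markers limma called 0, and 0 had an unadjusted p under 0.05. All 3 Langerhans cell markers had a lower mean, with list means of -0.50 to -0.20 in CLEC4C-DTR mice and -0.18 to 0.17 in control mice. List means of mast cell markers were -0.09 to 0.09, against -0.11 to 0.19 in control mice. Those of eosinophil markers were 0.004 to 0.27, against -0.03 to 0.04 in control mice.

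**Figure D4:**
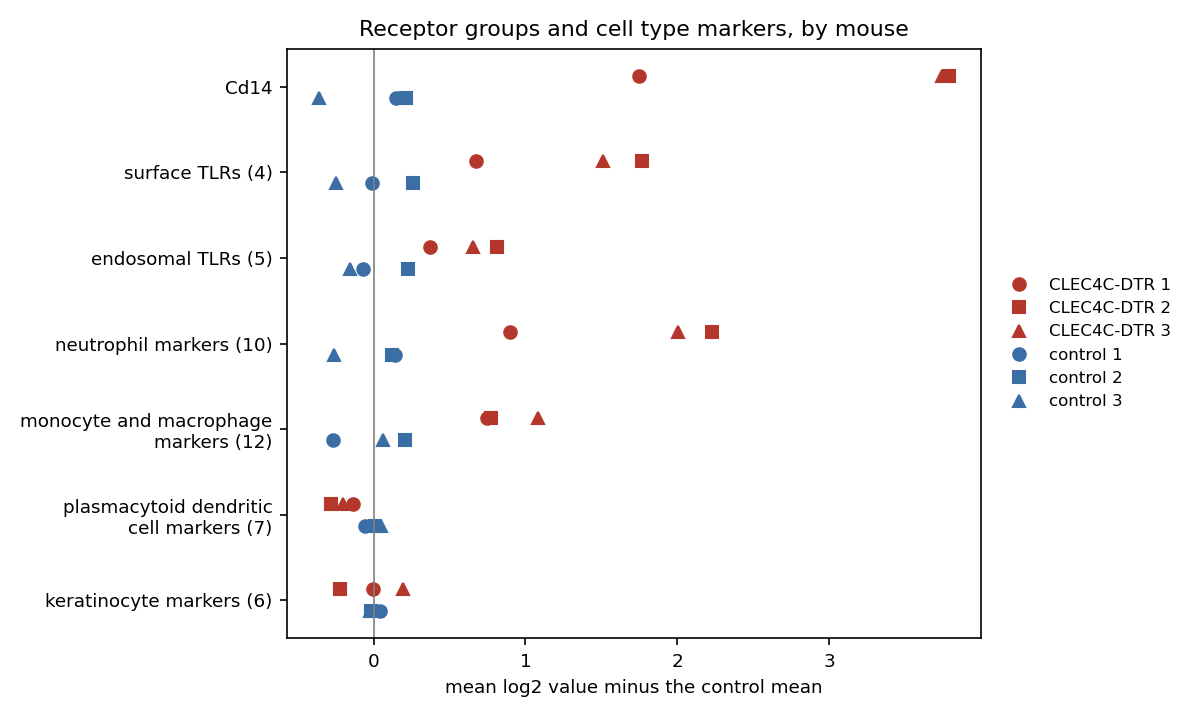
Mean log2 value of each group of genes minus its control mean (horizontal axis), with 1 symbol per mouse and the number of genes in brackets. Cd14 lies at 1.75 to 3.79 in CLEC4C-DTR skin, the neutrophil markers at 0.90 to 2.23, and the plasmacytoid dendritic cell markers slightly below the controls.

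Cd14 lay further above its control mean than both marker lists did on every CLEC4C-DTR array. Single neutrophil markers differed by nearly as much as Cd14, with 2.92 for Retnlg and 2.78 for Ly6g, while Ltf at 0.31, Padi4 at 0.50 and Camp at -0.08 lower the mean of that list. Relative to the mean of the neutrophil markers on the same array it was at 0.85, 1.56 and 1.74 in CLEC4C-DTR skin and at 0.00, 0.09 and -0.10 in control skin. Relative to the monocyte and macrophage markers it was at 1.00, 3.02 and 2.66 in CLEC4C-DTR skin and at 0.42, 0.00 and -0.42 in control skin, and the groups did not overlap in either case. Tlr6 lay near the mean of the neutrophil markers, at -0.04 to 0.16 in CLEC4C-DTR skin and -0.10 to 0.19 in control skin. That mean is lowered by Ltf, Padi4 and Camp. The 6 called neutrophil markers each rose by more than Tlr6, from 2.21 for Cxcr2 to 2.92 for Retnlg. Relative to the monocyte and macrophage markers Tlr6 was at 0.11, 1.62 and 0.92, against 0.32, 0.10 and -0.42. Tlr8 lay near the mean of the monocyte and macrophage markers, at 0.05, 0.49 and 0.15 in CLEC4C-DTR skin, against -0.02, 0.13 and -0.11 in control skin. Relative to the neutrophil markers Tlr8 was at -0.10, -0.97 and -0.77, against -0.43, 0.22 and 0.21. Tlr2 overlapped between the groups relative to the monocyte and macrophage markers but lay lower in CLEC4C-DTR skin relative to the neutrophil markers, at -0.67, -0.81 and -0.82, against -0.22, 0.13 and 0.09. Tlr4 did likewise, with differences between the group means of 0.38 against the first list and -0.46 against the second. Tlr1, Tlr6, Tlr8 and Tlr13 overlapped between the groups relative to both lists. Tlr3, Tlr7 and Tlr9 lay below both lists in CLEC4C-DTR skin without overlap. These relative values were chosen after the gene values were seen and carry no test.

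Genes with the most similar profiles over the 6 arrays were sought by the root-mean-square distance between log2 values centred on each gene's mean. The nearest to Cd14 were Trem1 (distance 0.18), Retnlg (0.23) and Ccl3 (0.24). The nearest to Tlr4 were Glrx (0.05), Tnfrsf1b (0.08) and Lcp2 (0.08), and those to Tlr1 were F630028O10Rik, Slc2a1 and Lcp1 (0.06 to 0.07). Siglece, Mxd1 and Mcemp1 lay nearest to Tlr6 (0.10 to 0.11), Ptafr, Srgn and Rgs2 to Tlr13 (0.10 to 0.11), and Fosl2, Inpp5d and AB124611 to Tlr8 (0.06 to 0.07). Among the 10 genes themselves, Tlr1 and Tlr4 lay nearest to each other at 0.13, and Cd14 stood apart, with Tlr6 the nearest at 0.72.

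Genes that bring these receptors to their place and pass on their signal rose in part. Of 63 other measured genes of the pathway, 17 rose, 1 fell and 45 did not pass. Over all genes 5.01% passed as higher and 9.32% in either direction, shares to be set beside each smaller pathway list below. The median difference was 0.25 (log2), against -0.04 over all genes. Unc93b1, the chaperone that carries nucleic acid receptors to endosomes, was at 8.32, 8.24 and 8.39 in CLEC4C-DTR skin and at 7.38, 7.75 and 7.37 in control skin (1.76-fold, limma adjusted p = 0.0142). The lysosomal proteases Lgmn and Ctss, which process proteins in endosomes, rose 2.39-fold and 1.71-fold. Unc93b1, Lgmn and Ctss were the only called rises among 9 trafficking and cleavage genes. Ctsb was also higher without overlap but did not pass (log2 difference 0.36, limma adjusted p = 0.0820).

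Of 6 adaptors 2 rose. Myd88, which most Toll-like receptors use, was at 9.64, 9.74 and 9.61 in CLEC4C-DTR mice and at 8.72, 9.33 and 8.58 in control mice (1.73-fold, limma adjusted p = 0.0365). Pik3ap1, an adaptor to phosphoinositide kinase, rose 2.81-fold (limma adjusted p = 0.0268). Of 13 kinases and ubiquitin ligases limma called 0 (2 had an unadjusted p under 0.05), and the smallest p was that of the kinase Irak2, at a difference of 0.81 (limma adjusted p = 0.0524). Among 5 transcription factors only Irf5 was called, with a rise of 1.54-fold (limma adjusted p = 0.0341). Rela and Irf7 were also higher without overlap but did not pass (limma adjusted p = 0.0951 and 0.0961).

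The feedback inhibitors held 2 called rises among 8 genes. Nfkbia, which retains NF-kB in the cytoplasm, rose 1.93-fold and the RNase gene Zc3h12a 1.83-fold. An unadjusted p under 0.05 was found for 6 of the 8, against 27.3% of all genes. Higher without overlap were 6, against 14.0% of all genes, and 1 was lower without overlap. Of 9 cytokine genes that these receptors are known to induce, 3 rose and none fell. Il1b rose 5.40-fold, Tnf 2.51-fold and Il10 2.39-fold (limma adjusted p = 0.0192, 0.0287 and 0.0264). Of 7 genes for reported endogenous ligands 5 rose, with the calprotectin genes S100a9 and S100a8 at 2.80-fold and 3.06-fold and the matrix protein Tnc at 2.87-fold. S100a8 and S100a9 are also neutrophil genes. Of 5 genes of lipid binding and delivery, Ly96 rose as above and Cd36 fell. Cd36, a scavenger receptor that assists Tlr2 and Tlr6 and is also strongly expressed in fat and small vessels, was at 8.61, 8.49 and 8.68 in CLEC4C-DTR skin and at 9.44, 9.28 and 9.49 in control skin, a difference of -0.81 (SE 0.09, limma adjusted p = 0.00937).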

How the data were processed

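Total RNA of whole ear skin was hybridised to Affymetrix Mouse Gene 1.0 ST arrays. The deposited values are log2 intensities that the authors obtained with the RMA method, per the series' design text. Their range, 1.60 to 13.9, was taken as showing the log2 scale. The sources used here name no RMA software, and mm8 stands in the submitters' processing notes as a build with no role given. RMA forces all arrays to nearly one distribution and compresses differences of dim genes, and no background measure was used, so no gene was called absent.

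Of 35556 probe sets, 21789 have 1 symbol in the platform annotation, 1621 several and 12146 none. The brightest probe set per gene gave 19938 genes, and each of the 10 genes has 1. Of the single-symbol probe sets, 21698 were found by Entrez identifier in RefSeq. Groups were compared with limma 3.58.1 (lmFit, eBayes) in R 4.3.3, with no covariate, over all genes, and the step was tested on simulated data. Pairs of genes were compared with exact permutation tests in scipy 1.17.1. Figures used matplotlib 3.10.9. Replicates are separate mice. Named were all 10 genes, the called genes of each pathway list with the smallest p (up to 3, or the first where none was called), Siglech, Hbegf, and the 3 nearest profiles of each called gene; genes named from the marker lists were picked after their values were seen. The genes, lists and tests were chosen with earlier results of these data known. Alternatives were scalings, filters on dim genes, variance moderation, array weights, probe set rules, features tested, a replicate block and each array left out.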

Additional observations from a re-analysis of the deposited data

How the results depend on the processing

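Of the 10 genes 6 were called, 6 of them at 2-fold, and 18 other pathway genes were. The first count was 5 to 8 under median centring, a further quantile normalisation, filters on dim genes, variance trends, array weights, other probe set rules, the replicate block and, added after the data were seen, all probe sets listed with a gene. The filter at the median level left out Tlr7 and Tlr8 as dim, and the filter at the 25th percentile left out Tlr7. The 3 counts were 0, 0 and 0 in limma without moderation of variances, and there 0 of all 19938 genes were called. In that fit 7 of the 10 genes, 24 pathway genes and 4387 of all genes had an unadjusted p under 0.05. Over all 35556 probe sets the 3 counts were 0, 0 and 4, with limma adjusted p-values of 0.0569 to 0.0751 for the 6 genes. There 0.267% of all probe sets were called. At an unadjusted p under 0.05 were 8 of the 10 genes and 7787 of all probe sets. With 1 array left out the counts were 0 to 7, 0 to 7 and 3 to 23, with fewer samples. Tlr6 missed the threshold with a robust variance trend (adjusted p = 0.0582). Tlr9 passed under median centring (0.0408), both filters on dim genes, array weights and the replicate block, and Tlr2 with array weights (0.0386) and the replicate block (0.0302). No difference of the 10 genes or the 8 pairs changed sign. Median centring turned the balance over all genes to 1150 higher and 644 lower, against 998 and 860.

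Same-numbered mice share only a number: the correlations of their deviations were -0.06, 0.22 and 0.10. With the replicate block 8 of the 10 genes and 28 other pathway genes were called, as were 10.5% of all genes, against 9.32% without it.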
